A study of Caenorhabditis elegans with 2 samples.

Results

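The regions described here are those of the pooled NHR-10 list that lay on the 5 autosomes of Caenorhabditis elegans, between genes and away from promoters. A region was taken when its summit fell outside every protein-coding gene of the Ensembl annotation of WBcel235 (the ce11 assembly) and over 1000 bp from every protein-coding transcription start site (TSS). The rule used position only, not signal. It took 4917 of the 30000 regions of the pooled list, or 20.3% of the 24168 autosomal regions. They are called distal intergenic regions below. Many lay close together, and joining those that overlapped left 4500 separate stretches.

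NHR-10 binding had been mapped by ChIP-seq, the sequencing of DNA that co-precipitates with a protein, in larvae of the L2 stage. The strain was OP239, with the genotype unc-119(ed3) III; wgIs239, a transgenic line that stably expresses NHR-10 with GFP and FLAG at its C terminus. There was 1 group of 2 biological replicates, each from pooled male and female animals, with no other genotype or stage beside it. Whole animals were used, so the tissue in which a region was bound cannot be told apart. The authors deposited a list for each replicate (22993 and 30000 regions) and a pooled list made from both. The pooled list is labelled as peaks and background, the input for selection by irreproducible discovery rate, a measure of rank agreement between replicates. A thresholded list of 491 regions came from that selection. A region of the pooled list outside the thresholded list is therefore not by itself a called binding site. Each region carries the authors' signal value, whose scale is not given in the sources used here, and no read counts, so the depth is unknown. The thresholded list held exactly the 491 highest signals of the pooled list, so membership in it and high signal are the same fact.

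NHR-10 is a zinc-finger transcription factor of the nuclear hormone receptor family, known for acting with NHR-68 to switch on the propionate shunt, a route of propionate breakdown used when vitamin B12 is low. Nuclear receptors bind DNA both at promoters and at distal elements. C. elegans genes are densely packed and most regulatory DNA lies close to the gene it controls. Intergenic sequence farther away also holds many genes for small non-coding RNAs that have promoters of their own.

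The sequences at 9 summits are printed here because these regions carry the results on signal, motifs, replicates and non-coding genes. Each is the 150 bp around the summit, on the plus strand, 5′ to 3′, from the RefSeq WBcel235 genome, and is named by the protein-coding genes on its left and right. Capitals mark any of 9 short motifs, searched on both strands and spelled out below with their shares. On the minus strand GAGAGA reads as TCTCTC and GACGCA as TGCGTC, and the first can run into the second by sharing GA. In 200 bp windows over all autosomal regions, GAGAGA occurred in 14.0%, GACGCA in 5.80%, CGCAGGGA in 0.145%, AGTTCA in 12.4%, AGGTCA in 4.72%, TGATAA in 18.8%, CACGTG in 3.92%, TGACGT in 6.12% and GGTTCGA in 1.61%. A match is a description of the letters and not a mapped binding site.
cutl-22 and cmd-1, chrV:1151399-1151548: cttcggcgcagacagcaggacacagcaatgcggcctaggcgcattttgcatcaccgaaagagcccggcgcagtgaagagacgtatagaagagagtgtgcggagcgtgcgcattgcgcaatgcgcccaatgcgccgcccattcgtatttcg
atfs-1 and T16A9.3, chrV:14200212-14200361: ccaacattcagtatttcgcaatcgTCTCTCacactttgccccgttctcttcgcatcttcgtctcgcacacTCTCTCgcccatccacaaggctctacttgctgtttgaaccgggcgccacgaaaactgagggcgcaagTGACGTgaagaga
T04C4.3 and fnip-2, chrIV:2219558-2219707: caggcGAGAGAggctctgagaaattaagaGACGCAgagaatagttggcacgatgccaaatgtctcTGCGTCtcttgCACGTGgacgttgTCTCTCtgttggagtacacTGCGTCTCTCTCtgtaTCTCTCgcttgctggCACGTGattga
F38A6.4 and hif-1, chrV:20778337-20778486: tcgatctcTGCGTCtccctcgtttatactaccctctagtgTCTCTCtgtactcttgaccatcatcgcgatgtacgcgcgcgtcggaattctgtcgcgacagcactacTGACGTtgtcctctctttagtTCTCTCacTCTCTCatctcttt
Y17G7B.17 and Y17G7B.18, chrII:12102478-12102627: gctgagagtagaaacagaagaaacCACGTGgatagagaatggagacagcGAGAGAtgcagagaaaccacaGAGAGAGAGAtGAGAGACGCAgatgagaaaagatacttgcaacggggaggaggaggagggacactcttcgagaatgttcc
ogt-1 and nuo-4, chrIII:7155723-7155872: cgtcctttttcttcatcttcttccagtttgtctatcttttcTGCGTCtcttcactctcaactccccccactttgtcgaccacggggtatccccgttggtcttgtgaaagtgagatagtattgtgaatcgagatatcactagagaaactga
srw-60 and nhr-88, chrII:2973995-2974144: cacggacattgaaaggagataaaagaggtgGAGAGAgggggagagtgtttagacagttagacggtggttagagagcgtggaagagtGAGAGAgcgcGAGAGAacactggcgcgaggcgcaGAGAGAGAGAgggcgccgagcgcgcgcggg
plg-1 and K01F9.2, chrIII:8865429-8865578: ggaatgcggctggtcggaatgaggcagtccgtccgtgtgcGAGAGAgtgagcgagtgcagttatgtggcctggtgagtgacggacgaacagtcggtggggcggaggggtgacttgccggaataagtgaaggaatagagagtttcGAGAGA
C17C3.24 and ins-13, chrII:5543623-5543772: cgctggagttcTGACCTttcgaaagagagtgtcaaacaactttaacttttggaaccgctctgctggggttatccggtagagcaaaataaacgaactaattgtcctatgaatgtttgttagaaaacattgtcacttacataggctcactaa

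Runs of GA or TC were the most frequent capitals in these sequences. The stretch between T04C4.3 and fnip-2 held GAGAGA 5 times, GACGCA 3 times and CACGTG 2 times, and that between Y17G7B.17 and Y17G7B.18 held the same 3 motifs 5 times, once and once. The summit before hif-1 held GAGAGA 3 times, and the summit before nhr-88 held it 6 times with no other motif. The summit between cutl-22 and cmd-1, of higher signal than any of these, held none of the 9.

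Most distal intergenic regions were of low signal. Signal ran from 6.00 to 108, with a median of 8.32 and quartiles of 6.99 and 10.6, against a median of 8.36 over all autosomal regions. Medians were 8.63 within 1000 bp of a TSS, 8.05 for summits in introns over 1000 bp from a TSS, and 8.44 for the X regions that meet the same rule. The medians therefore lay close together, and the classes parted at the top. A signal of 20 or more was carried by 148 distal intergenic regions (3.01%), against 3.47% of all autosomal regions, 5.09% of those near a TSS, 1.62% of the intronic and 4.67% of the X regions. At 50 or more the count was 10 (0.203%), against 0.389% of all autosomal regions. The highest autosomal signal, 172, and the highest distal X signal, 218, both exceeded the highest distal autosomal signal of 108.

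**Figure D1:**
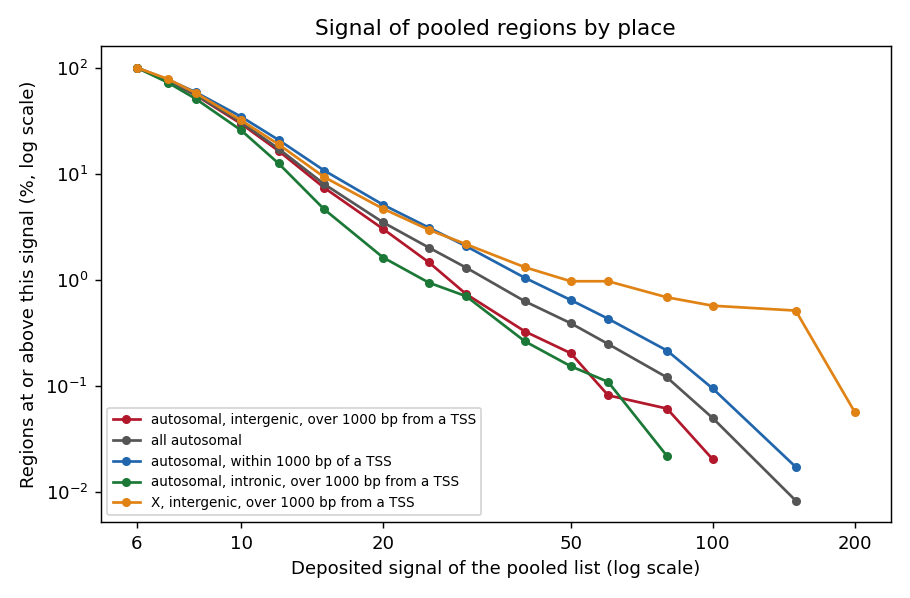
Share of regions (%, log axis) at or above each deposited signal (log axis) in the pooled list, for the distal intergenic regions, all autosomal regions, autosomal regions within 1000 bp of a TSS, autosomal intronic regions and X intergenic regions over 1000 bp from a TSS. The curves start together, and above a signal of 20 the distal autosomal curve runs below those of the promoter and X regions.

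In the thresholded list stood 51 of the 4917 regions, or 1.04% (exact 95% interval 0.773 to 1.36), against 1.63% of all autosomal regions. In the replicate 1 list the share overlapping a thresholded region was 1.88%, against 2.55% of its autosomal regions. For the replicate 2 list it was 1.25% against 2.06%. The thresholded list itself drew on both replicates, so these 2 shares are not independent of each other or of the pooled share. In the pooled list the share was 2.54% (2.26 to 2.84) within 1000 bp of a TSS, 0.873% (0.625 to 1.19) in introns and 2.50% (1.83 to 3.35) among distal X regions. These intervals cover counting error only, and with 1 group and no counts per replicate the differences between classes were not tested. The 51 regions had signals from 27.4 to 108, with a median of 34.5. The lowest of them ranked 490 in the pooled list, and the highest region left outside had a signal of 27.3 and rank 496. Another 18 distal intergenic regions outside the list overlapped a region within it.

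The 2 highest lay at non-coding RNA genes. The first had its summit on II at 5543698 (region 5543503 to 5543892) between C17C3.24 and ins-13, which encodes an insulin-like peptide, with a signal of 108 and pooled rank 24. This summit fell inside sls-2.2, a gene for an SL2 RNA, the small RNA that is spliced onto the downstream genes of operons, and inside the non-coding RNA C17C3.23. In replicate 2 the region within 100 bp ranked 66 with a signal of 55.7, and another one 131 bp away ranked 18 with a signal of 100. In replicate 1 the nearest summit was 110 bp away, ranked 33 and had a signal of 20.8. Both replicates thus had a high region there, at summits that did not coincide. Words of 31 bases that recur elsewhere in the genome made up 23.5% of its window, and the part of multiply placed reads in this signal was not tested.

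The second lay on V at 1151474 (1151279 to 1151668), inside linc-128, a long intergenic non-coding RNA gene, 4797 bp before cmd-1 (WBGene00000552), the calmodulin gene. Its signal was 93.9 in the pooled list, 33.1 in replicate 1 and 66.7 in replicate 2. It ranked 33, 15 and 40 in those lists, which made it the highest distal intergenic region of replicate 1. None of its 31-base words recurred, and its window had a GC content of 60.5%.

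The third lay on I at 16997, near the end of the chromosome, with a signal of 85.8, and ranked 59 and 49 in replicates 1 and 2. Although 1894 bp from a TSS, it lay 160 bp past the end of nlp-40, which encodes a neuropeptide precursor, and 487 bp past the end of rcor-1, a CoREST corepressor homologue, in a gap of 646 bp. Soft-masked bases made up 66% of its window.

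The fourth stood on V at 14200287 with a signal of 72.3, between atfs-1, the transcription factor of the mitochondrial unfolded protein response, and T16A9.3. Its signal was 13.4 at rank 130 of replicate 1 and 60.6 at rank 58 of replicate 2. The fifth stood on IV at 2219633 with a signal of 58.9, before fnip-2, named for folliculin-interacting protein, with 19.6 at rank 46 and 38.4 at rank 129. The next stood on V at 20778412, 1995 bp before hif-1, the hypoxia-inducible factor, with a signal of 53.0, and with 11.9 at rank 178 of replicate 1 and 41.1 in replicate 2. All 3 were among the 200 highest regions in each replicate list.

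The next 4 regions had signals between 50.2 and 52.7. On II, at 12102553, the region between Y17G7B.17 and Y17G7B.18 reached 52.7. On III, those at 3801531, beside the myotubularin phosphatase gene mtm-3, and at 7155798, between ogt-1 and nuo-4, both had 52.3. ogt-1 encodes the O-GlcNAc transferase and nuo-4 a subunit of respiratory complex I, and this region had a signal of 22.5 at rank 31 of replicate 1 and of 35.3 at rank 160 of replicate 2. The last, on I at 2639748 between F40E3.3 and mage-1, had 50.2. Signals of the other 10 among the 20 highest ran from 37.3 to 47.9. They flanked, among others, the nuclear receptor genes nhr-20 (44.1, III at 4237832) and nhr-88 (37.4, II at 2974070), fos-1, which encodes a Fos transcription factor (42.0, V at 6000489), and lip-1, which encodes a MAP kinase phosphatase (37.3, IV at 6839355).

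The share in the thresholded list fell with distance from promoters below the limit of the rule, and past it was lowest between 5000 and 10000 bp. Among autosomal intergenic summits it was 7.84% within 250 bp of a TSS and 4.52%, 3.49% and 2.46% in the next bins of 250 bp, all outside the rule. Just inside it, between 1000 and 1250 bp, 6 of 500 regions (1.20%, 0.442 to 2.59) were in the list, with a median signal of 8.27 against 8.56 between 750 and 1000 bp. The shares then were 1.30% up to 1500 bp, 1.62% up to 2000 bp, 1.25% up to 3000 bp and 0.777% up to 5000 bp, with overlapping intervals. Between 5000 and 10000 bp 2 of 752 regions (0.266%, 0.0322 to 0.957) were in the list, and beyond 10000 bp 1 of 123 (0.813%, 0.0206 to 4.45). Spearman's rho between signal and TSS distance over the 4917 regions was -0.045, a description only, since neighbouring regions share sequence and library.

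**Figure D2:**
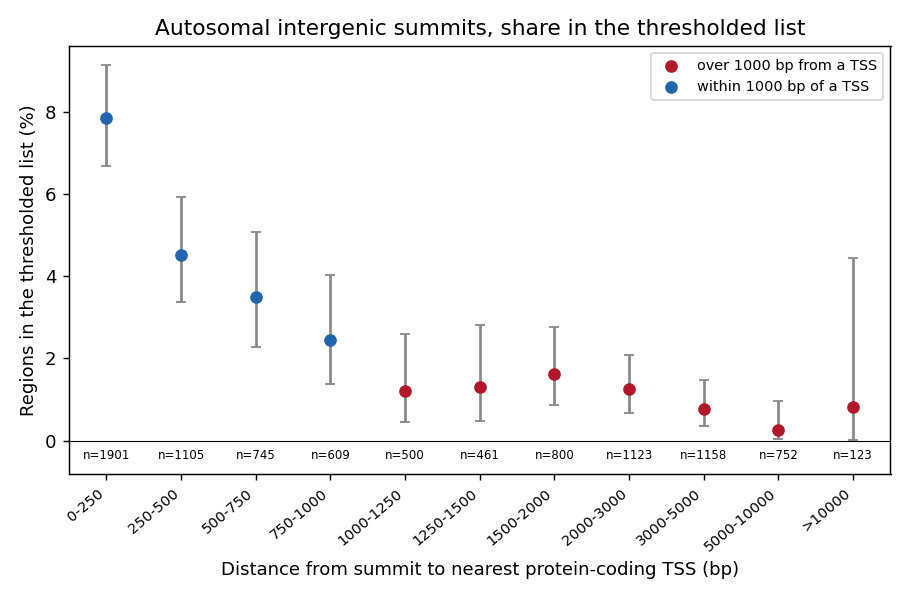
Share of autosomal intergenic summits in the thresholded list (%) by distance from the nearest protein-coding TSS (bp), with exact 95% intervals and the number of regions in each bin. Blue points lie within 1000 bp and red points are the distal intergenic regions. The share falls from 7.84% to 2.46% within 1000 bp and lies between 0.266% and 1.62% beyond it.

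The median distance to a TSS was 2586 bp (range 1001 to 27322) over all distal intergenic regions and 2001 bp (1060 to 11624) over the 51. They occupied 2469 gaps between protein-coding genes, of median length 7091 bp per region. A single region was found in 1374 of these gaps, and 5 or more in 184. The most crowded gap, 33430 bp between nhr-46 and C31H1.2 on IV, held 19, none of them in the thresholded list. The 51 lay in 50 gaps, of which 15 held no other region. The gap between F54F12.1 and Y39E4B.6 on III held 2 of the 51, with signals of 40.2 and 28.4.

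Flanking genes on the same strand enclosed 2718 regions (55.3%, 29 of them in the thresholded list), divergent genes 1590 (32.3%, 16 in the list) and convergent genes 607 (12.3%, 6 in the list). The share in the list was 1.07% (0.716 to 1.53), 1.01% (0.576 to 1.63) and 0.988% (0.364 to 2.14) in that order. These values lay close together, with intervals too wide to exclude a difference by orientation. The nearest gene edge was a 5′ end for 2584 regions and a 3′ end for 2331, and 26 and 25 of the 51 fell to each. Being far from a TSS did not mean being far from a gene, since 1215 regions (24.7%), 15 of the 51 among them, lay within 1000 bp of a gene's edge.

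Nuclear receptor genes stood beside distal intergenic regions at 86 of 246 autosomal loci (35.0%), where 25.7% of all 17242 autosomal protein-coding genes did. Beside a thresholded region there were 100 autosomal genes (0.580%), and 3 of them were nuclear receptor genes, nhr-10, nhr-20 and nhr-88. The region before nhr-10 lay on III at 7116809, 1371 bp upstream of its TSS, with a pooled signal of 33.9, at rank 306. Replicate 1 gave it a signal of 5.17 at rank 3031 and replicate 2 one of 28.9 at rank 257. The line carries tagged nhr-10 as a transgene, and DNA from the transgene and from the native locus cannot be told apart here. No gene of the propionate shunt had a distal intergenic region beside it (0 of 5).

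Homeobox genes had such regions beside 19 of 45 members (42.2%) and chemoreceptor genes beside 296 of 1331 (22.2%), against 25.7% of all autosomal protein-coding genes. Thresholded ones stood beside 0 and 1 (srw-60, 0.0751%), against 0.580% of all autosomal protein-coding genes. Cytoplasmic ribosomal protein genes had distal intergenic regions beside 8 of 74 (10.8%) and C-type lectin genes beside 41 of 237 (17.3%). Thresholded ones stood beside 0 and 1 (clec-180, 0.422%). Differences from the autosomal shares were not tested, and the counts beside thresholded regions are small. Of 9 genes of the methionine and S-adenosylmethionine cycle, 3 (33.3%) had a distal intergenic region beside them. Among these was ahcy-1, which encodes S-adenosylhomocysteine hydrolase and had a thresholded region 1060 bp upstream with a signal of 33.6. Gap length was not held constant in these counts.

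Several other flanking genes were chosen after their values were seen. The thresholded region 1717 bp before egl-9, whose product is the prolyl hydroxylase that marks HIF-1 for degradation, had a signal of 35.8, against 53.0 before hif-1 itself. Regions also flanked pyc-1, for pyruvate carboxylase (32.2), mtrr-1, for methionine synthase reductase (29.0), mml-1, for a Myc and Mondo-like transcription factor (28.7), lpin-1, for the phosphatidate phosphatase lipin (28.3), and idh-1, for isocitrate dehydrogenase (27.9). Nothing in the lists ties a region to one of its neighbours, and expression was not measured here.

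Non-coding genes were common near these summits. A non-coding gene or pseudogene lay within 500 bp of 1599 regions (32.5%, 31.2 to 33.8), against 17.6% of all autosomal regions. By kind, piRNA genes, which encode the germline small RNAs bound by PRG-1, were near 554 (11.3%, against 5.67% of autosomal regions). Pseudogenes were near 454 (9.23% against 2.93%), genes annotated only as ncRNA near 542 (11.0% against 7.61%) and lincRNA genes near 81 (1.65% against 0.538%). The rule admits only summits outside protein-coding genes, so the regions compared differ in the sequence they could fall in.

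The share in the thresholded list was close with and without a non-coding gene nearby. Of the regions with one, 16 of 1599 (1.00%, 0.573 to 1.62) were listed, and of those without, 35 of 3318 (1.05%, 0.736 to 1.46). By kind, 2 of 554 near piRNA genes and 1 of 454 near pseudogenes were in the list, where 6 of 1371 and 4 of 709 were over all autosomal regions. Near snRNA genes, a kind that includes the SL2 RNA genes, it was 2 of 7 against 18 of 74, and near snoRNA genes 3 of 50 against 24 of 240. Near miRNA genes it was 2 of 27 against 6 of 89, and near ncRNA genes 10 of 542 against 83 of 1839. Among these 6 kinds snRNA genes thus had the highest share and piRNA genes and pseudogenes the lowest in both sets, on small counts. In the list overall 28.8% of autosomal regions had a non-coding gene within 500 bp, against 16 of the 51 (31.4%).

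The 2 thresholded regions farthest from any protein-coding TSS both lay beside microRNA genes. The farther stood on III at 8865504, 11624 bp from a TSS and 137 bp from cel-mir-80, a member of the bantam-related microRNA family, with a signal of 37.3. Its signal was 20.3 at rank 38 of replicate 1 and 21.0 at rank 530 of replicate 2, so its better rank was in replicate 1. The other stood on IV at 14033889, 9891 bp from a TSS and 119 bp from cel-mir-52, of the family of mir-51, with a signal of 30.4, rank 339 in replicate 2 and no summit within 100 bp in replicate 1. Another region, 207 bp from cel-mir-79 on I at 9332739 beside lin-41, had a signal of 24.0 and fell short of the list. Its nearest non-coding gene was the ncRNA C12C8.8, 90 bp away.

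The highest tRNA neighbour was the region on I at 13297847 between top-1 and sepa-1, with a signal of 32.1. It lay 30 bp from the SL2 RNA gene sls-2.9 and 102 bp from a tRNA gene, and ranked 2434 and 303 in replicates 1 and 2. The highest snoRNA neighbours were on IV, at 7574088 beside clec-180 (32.0) and at 8428845 beside tmem-231 (31.8). Their ranks were 3010 and 1002 in replicate 1 and 309 and 225 in replicate 2. Both stood in gaps between convergent genes, of 588 and 378 bp. The tRNA B box core GGTTCGA was in none of the 51 windows, and its share was 1.85% over all distal intergenic regions.

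Distal intergenic regions were denser in chromosome centres, as were all autosomal regions and the distal X regions. Sequence that meets the rule came to 18.9 Mb, 22.8% of the autosomes, with 53.5% of it on the arms, here all but the middle 50% of each chromosome. On the arms lay 2296 regions (46.7%, 45.3 to 48.1), against 44.1% of all autosomal regions. Per Mb of sequence that meets the rule there were 228 regions on arms and 299 in centres, and the arms had the lower value on each of the 5 autosomes. The gap was widest on II, with 188 against 301, and narrowest on III, with 305 against 340. Median signal was 8.14 on arms and 8.49 in centres, and soft-masked bases, mostly repeats, had medians of 43.5% and 30.5%. Their part in the difference was not tested. In the thresholded list were 19 arm regions (0.828%, 0.499 to 1.29) and 32 centre regions (1.22%, 0.837 to 1.72). All autosomal regions had the same order, with 160 of 10657 and 233 of 13511 in the list, median signals of 8.15 and 8.55, and masked medians of 42.5% and 27.0%. More of these also lay in centres than on arms of the same total length. Distal X regions numbered 295 per Mb of such sequence on arms and 336 in centres.

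**Figure D3:**
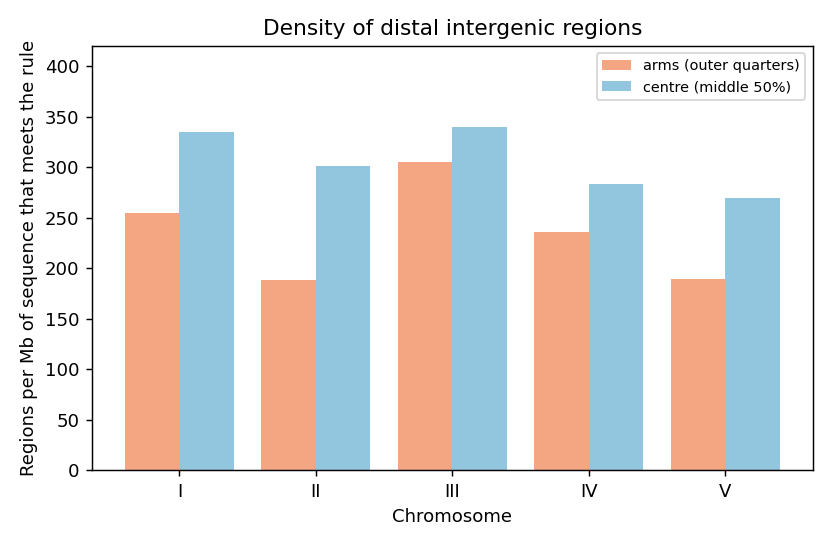
Number of distal intergenic regions per Mb of autosomal sequence that meets the rule, on arms and in centres (middle 50%) of each autosome. Bars are counts over sequence length and have no replicate error. The centre bar is the taller on all 5, from 269 on V to 340 on III.

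By chromosome the counts were 805 on I, 845 on II, 883 on III, 1243 on IV and 1141 on V. In the thresholded list were 9, 8, 14, 9 and 11 of them. Chromosome III had the highest share in the list, 1.59% (0.869 to 2.65), and IV the lowest, 0.724% (0.332 to 1.37), with intervals that overlap. III also led among all autosomal regions, with 2.10%.

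The replicates covered these regions unequally. A replicate 1 summit lay within 100 bp of 1196 regions (24.3%, 23.1 to 25.5), against 25.7% of all autosomal regions, and a replicate 2 summit near 3258 (66.3%, 64.9 to 67.6), against 65.5%. Both had one at 576 (11.7%, against 12.6% of all autosomal regions). Neither had one at 1039 of the 4917, against 5181 of the 24168 autosomal regions. The pooled list was made from these replicates, so a match is not independent evidence. Matches grew with pooled signal, from 15.9% in replicate 1 and 47.9% in replicate 2 below rank 20000 to 66.7% and 97.6% between ranks 492 and 1000. Over the 576 regions matched in both, Spearman's rho between replicate signals was 0.292, against 0.389 over 3056 matched autosomal regions, given as a description because neighbouring regions share libraries and sequence.

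Of the 51, 49 (96.1%) had a replicate 2 summit within 100 bp and 38 (74.5%, 60.4 to 85.7) a replicate 1 summit, against 98.5% and 80.9% of all autosomal regions in the list. By any overlap of the regions the counts were 51 and 49. The median rank of the matches was 276 in replicate 2 and 664 in replicate 1. Among the 491 highest of their own list were 35 in replicate 2, 15 in replicate 1 and 10 in both. The same order held for all 393 autosomal thresholded regions, with 316, 167 and 132, and the lists differ in length. Those without a close summit in either were the region before egl-9, with the nearest summits 104 and 151 bp away, and one between nape-1 and siah-1 on IV at 3742583, with them 123 and 106 bp away.

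The ranks of single regions could lie far apart. The region between F54F12.1 and Y39E4B.6 at 13061368 had a signal of 2.65 at rank 15538 of replicate 1 and of 36.0 at rank 153 of replicate 2. Those beside ppk-2 (III at 2101043) and sup-26 (III at 4282216) ranked 9960 and 8603 in replicate 1 and 218 and 204 in replicate 2. The widest gap in the other direction, in a region chosen after its values were seen, was beside mfb-1 and sup-17 on I at 8786914, with rank 103 in replicate 1 and 4975 in replicate 2.

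**Figure D4:**
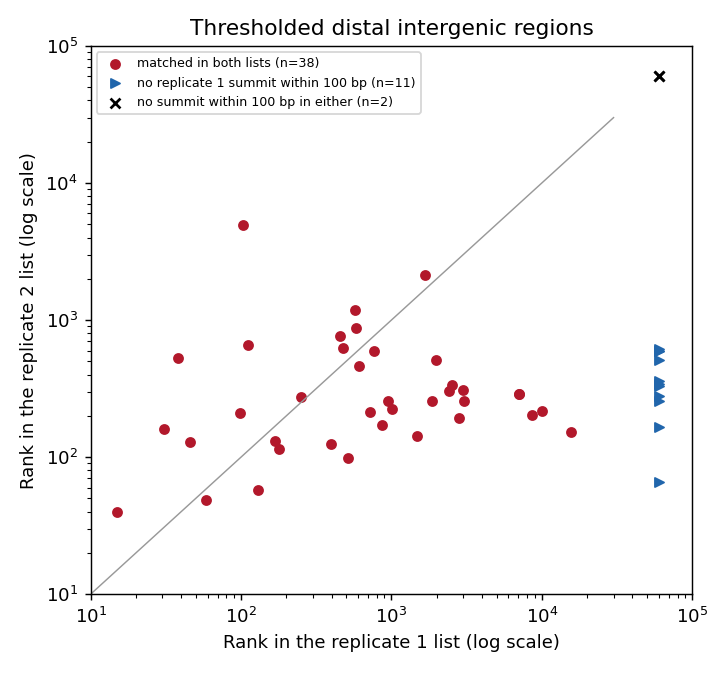
Rank in the replicate 1 list (x, log axis) against rank in the replicate 2 list (y, log axis) of the 51 distal intergenic regions in the thresholded list, with 1 as the highest signal. Circles are the 38 matched in both within 100 bp, triangles at the right edge the 11 with no replicate 1 summit, and the cross the 2 with neither. Most circles lie below the diagonal of equal rank.

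Taken from each replicate's own list, the rule gave 3726 regions in replicate 1 (20.2% of its autosomal regions) and 5045 in replicate 2 (20.8%). Of these, 64 (1.72%) and 50 (0.991%) were among the 491 highest of their list, against 2.04% and 1.61% of all autosomal regions. The distal intergenic share was below the autosomal share in each replicate as in the pooled list. In replicate 1 its interval (1.33 to 2.19) included the autosomal 2.04%, and in replicate 2 (0.736 to 1.30) it lay below 1.61%. The 5 highest of replicate 1 were the regions beside cmd-1, ogt-1, ins-13, cel-mir-80 and fnip-2, with ranks from 15 to 46.

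The 51 were rich in GC and poor in masked repeats. The median GC content of the 200 bp at the summit was 46.5% (quartiles 41.5 and 50.8), against 33.5% over all distal intergenic regions. It was 44.0% over all autosomal thresholded regions, 42.5% over those near a TSS, 49.8% over the intronic and 43.0% over the distal X ones. Of the 1064 regions with 40% GC or more, 42 (3.95%, 2.86 to 5.30) were in the list, and of the other 3853, 9 (0.234%, 0.107 to 0.443). With 40% GC or more, the share was 4.26% (3.78 to 4.79) over all autosomal regions, 6.16% near a TSS and 3.81% in introns. The median soft-masked share was 11.0% in the 51 and 36.0% over all distal intergenic regions, against 23.0% in autosomal thresholded regions. It was 26.0% in those near a TSS, 10.2% in the intronic and 13.2% in the distal X ones, so the low value was shared by the distal classes. In 4 of the 51 (7.84%), at least 10% of the 31-base words recurred in the genome, against 5.19% of all distal intergenic regions. The share was 5.85% in autosomal thresholded regions and 4.39% in those near a TSS. It was 6 of 40 in the intronic and 18.2% in the distal X ones, and these differences were not tested. The part of GC content in the signal was not tested, and no input coverage was analysed.

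**Figure D5:**
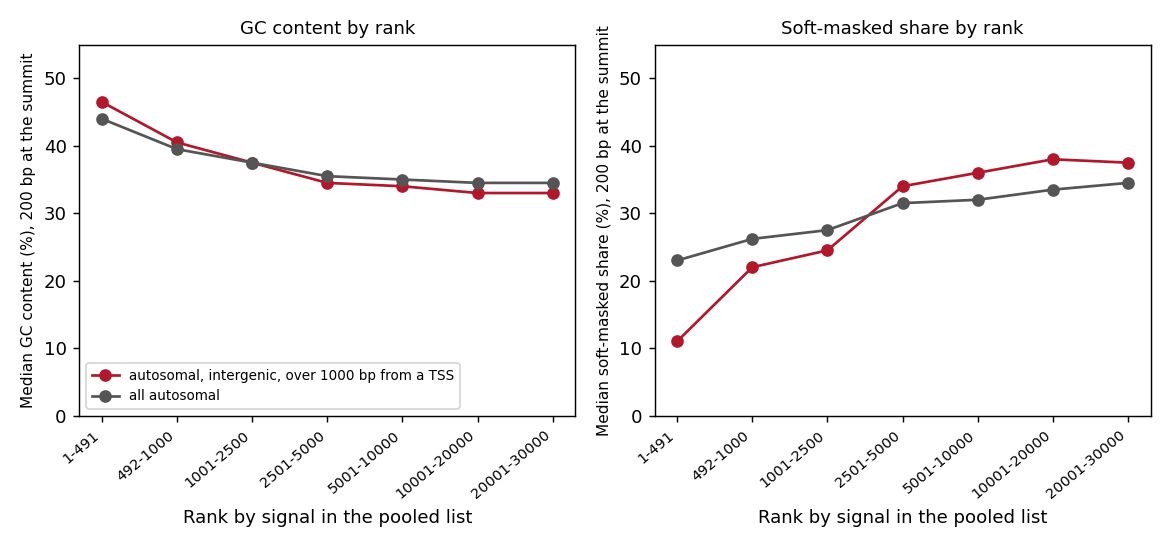
Median GC content (left, %) and median soft-masked share (right, %) of the 200 bp at the summit, by rank in the pooled list, for the distal intergenic regions (red) and all autosomal regions (grey). From the lowest to the highest ranks GC content rises from 33.0% to 46.5% in the red line, and the masked share falls from 37.5% to 11.0%.

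GAGAGA, the repeat printed above, was in 33 of the 51 windows (64.7%, 50.1 to 77.6), against 16.0% of all distal intergenic regions. Its share was 38.2% in all autosomal thresholded regions, 30.7% in those near a TSS, 24 of 40 in the intronic and 36.4% in the distal X ones. The share was thus higher away from promoters, in introns as between genes, than near a TSS on the autosomes, and the difference was not tested. Within bins from 35% GC up, GAGAGA was also more frequent in the 51, on small counts. From 35 to 40% GC it was in 4 of 8, against 18.1% of the other distal intergenic regions. The 1 of the 51 between 30 and 35% GC lacked it, against a share of 10.8%. From 40 to 45% GC it was in 7 of 11, against 26.5% of the other distal intergenic regions. From 45 to 50% it was in 12 of 17 against 43.0%, and at 50% or more in 10 of 14 against 48.8%. The part of GC content in the motif shares was not tested.

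GACGCA was in 18 of the 51 (35.3%), against 6.16% of all distal intergenic regions, 31.3% of all autosomal thresholded regions and 31.1% of those near a TSS. Its share was 27.5% in the intronic and 11.4% in the distal X ones. In 100 bp windows the order of the 51 and all autosomal thresholded regions was turned, with 17.6% and 23.4%. At least one of GAGAGA and GACGCA was in 38 of the 51 and both were in 13, with no such counts for other sets to compare. CACGTG, the E-box read by many basic helix-loop-helix factors, was in 7 (13.7%), against 3.50% of distal intergenic regions and 8.65% of autosomal thresholded regions. The intronic thresholded regions had it in 12.5% and the distal X ones in 9.09%. TGACGT, a cyclic AMP response element core, was in 5 (9.80% against 6.06%), and AGGTCA, a nuclear receptor core site, in 3 (5.88% against 5.71%). In autosomal thresholded regions their shares were 8.14% and 4.07%. TGATAA, read by intestinal GATA factors, was in 7 (13.7% against 19.2%), and AGTTCA in 3 (5.88% against 13.3%). Autosomal thresholded regions had these in 10.4% and 5.85%, also below the shares over all autosomal regions. CGCAGGGA, which was in 22.7% of the distal X regions of the list, was in 0 of the 51, where a count of 0 leaves an exact upper limit of 6.98%. None of the 9 motifs was in 6 windows, among them those at cmd-1 and sup-26, and this count too has no other set beside it.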

How the data were processed

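The authors deposited region lists in narrowPeak layout. Per the deposited notes, each replicate list came from its own alignment and a control, the pooled one from both together, and the thresholded list from the pooled and replicate lists by irreproducible discovery rate. The aligner, the peak caller and their settings are not given in the sources used here. The authors' signal (column 7) is in an unstated scale and was used to rank and describe regions within a list. The deposited score in column 9 entered no result. The ce10 lists and the control were not used here. Without read counts the depth is unknown, and the exact Clopper-Pearson 95% intervals cover counting error only.

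Members were found with Ensembl release 115, using every protein-coding transcript start. A region counted as thresholded when start, end and summit were the same in both lists, and as matched in a replicate when a summit lay within 100 bp. Non-coding genes were taken within 500 bp of the summit. GC content, soft masking, motifs (both strands) and 31-base words occurring more than once in the genome were read in 200 bp windows of the RefSeq genome. Code was tested on simulated data (Python 3.11.15, numpy 2.4.6, pandas 2.3.3, scipy 1.17.1, matplotlib 3.10.9).

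With 1 group of 2 replicates there was no test. The members, motifs and 16 gene lists were chosen with earlier results of these data known. Regions named are the 20 of highest signal, the highest on each autosome, the 3 highest near each kind of non-coding gene and beside each gene list, the 3 thresholded regions farthest from a TSS, those with the largest difference in replicate rank or no match, and those next to the signal limit. Others are said to be chosen after their values were seen. Alternatives covered the TSS distance and definition, list membership, replicates, matching distance, arm definition, non-coding distance and window.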

Additional observations from a re-analysis of the deposited data

How the results depend on the processing

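Of 117 alternative values computed, 69 stayed within the counting interval of the main value (counts of regions within 1.5 times it) and 48 moved. These shares, counts and medians have no sign to turn, but the order of GACGCA between sets did, as given below. A TSS distance of 2000 bp left 3156 regions, with a median signal of 8.21, 48.4% on arms and 0.824% in the thresholded list. At 500 bp the share in the list was 1.47% (1.18 to 1.80), an interval that included the autosomal 1.63%. Counting any overlap with a thresholded region, the share at the main TSS distance was 1.40% against 2.00%. Leaving out each replicate gave 3726 to 5045 regions and 46.9% on arms in both cases. The share overlapping the thresholded list, which still drew on both replicates, was then 1.25% to 1.88%. The share among the 491 highest of the remaining list, added after seeing the data, was 0.991% to 1.72%. The higher value in each pair came without replicate 2. Autosomal shares were 2.06% and 2.55% by overlap and 1.61% and 2.04% among the 491 highest, above the distal share each time. The interval of the 1.72% (1.33 to 2.19) included 2.04%. Centres of 40% and 60% of the length put 55.9% and 38.0% on arms. Matching within 50 bp, within 250 bp and by overlap gave 15.1%, 35.9% and 41.3% in replicate 1, and 57.0%, 75.2% and 77.5% in replicate 2. A non-coding gene at the summit, within 200 bp and within 1000 bp was found for 10.7%, 24.6% and 40.2% of regions, and at the summit for 13.7% of the 51. In 400 bp windows the 51 had a median GC content of 43.5% and GAGAGA in 78.4%, and in 100 bp windows GACGCA in 17.6%, below the 23.4% of all autosomal thresholded regions. Larger windows hold more letters and larger distances more genes by construction, and other causes were not tested. No paired analysis was possible because there was 1 group. With 51 regions in the list, shares over them have wide intervals.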
